A study of Mus musculus with 6 samples.

Results

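The genes described here are 10 members of bone morphogenetic protein (BMP) signalling and its Id genes, out of 55416 genes in the deposited count table. They were taken by symbol, through the GENCODE names of the Ensembl identifiers. They comprise the ligands Bmp4 and Bmp7, the receptor Bmpr1a, the transducers Smad1 and Smad5, the inhibitory Smad6, and Id1, Id2, Id3 and Id4. RNA-seq had been performed on WT and Oct6 KO epiblast-like cells (EpiLCs), the formative pluripotent cells that mouse embryonic stem cells (mESCs) become when the support of the naïve state is withdrawn, with 3 libraries of each genotype. WT cells were the 46C mESC line, a reporter line with GFP under the control of the neural gene Sox1. KO cells were 1 clone of that line, made with CRISPR/Cas9, that carries a homozygous insertion of a nucleotide in Oct6 (official symbol Pou3f1). Both groups therefore carry the reporter, and the genotype and the clone cannot be told apart. Both were differentiated for 48 h on fibronectin in N2B27 medium with, per the sample labels, 20 ng/ml of Activin A, 12 ng/ml of bFGF and 1% of the serum replacement KSR. The design text of the series and the paper give both factors in µg/ml, and this conflict was not resolved. No BMP is named among the additions.

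BMP ligands bind a complex of type I and type II serine/threonine kinase receptors, of which Bmpr1a encodes a type I receptor. The active receptor phosphorylates SMAD1, SMAD5 and SMAD9, which join SMAD4 and enter the nucleus, where the Id genes are among the best known targets. SMAD6 is an inhibitory SMAD that is itself induced by the pathway. ID proteins have a helix-loop-helix but no DNA-binding basic region, so that they hold E proteins and related factors off DNA. In mESCs, BMP4 together with LIF is known to sustain self-renewal through Id genes, and EpiLCs exposed to BMP4 can form primordial germ cell-like cells.

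The libraries held between 10995505 and 14680930 counts. Pou3f1, the targeted gene, had 142 ± 19.4 CPM (the usual depth-scaled count, here over the TMM-normalized library size; SD, n = 3) in the WT group against 132 ± 7.59 CPM in the KO group, a level that does not check the labels because an insertion of a nucleotide leaves the reads on the gene. Of the EpiLC markers, all 10 were tested, and 3 were called higher and 0 lower in KO EpiLCs by the test described next. The 3 were Sox2, Otx2 and Fgf5, at 1.34, 1.89 and 1.57 times the WT level in the fit. The summed level of the 10 markers was 3610 to 4010 CPM in WT libraries and 3600 to 3750 CPM in KO libraries. This sum is weighted towards the most abundant markers and does not show these rises. Markers of other cell types are given with the results they accompany. Each gene was tested between genotypes with edgeR's quasi-likelihood model across 15746 genes. A gene is called when its adjusted p (Benjamini-Hochberg, over all genes tested) was below 0.1, and a log2 fold change is that of KO over WT, given with its standard error (SE). Values listed for the libraries of a genotype are in the order of replicates 1, 2 and 3. Of the genes tested, 24.3% were called, 11.8% higher and 12.5% lower in KO EpiLCs.

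Sequences upstream of the Id genes are shown first because Id2 carried the clearest difference between genotypes and Id1 did not pass the test. The 2000 bases before the start of the canonical transcript of each member (GENCODE release M39 on GRCm39) were searched on both strands for GGCGCC, the GC-rich element bound by SMAD1 and SMAD5, and for a composite in which that element is followed, after 5 bases of any kind, by the GTCT bound by SMAD4. As an exact match, the composite was found in 33 of 21748 such windows of protein-coding genes (0.152%), and Id2 was the only member among them. Variants of either element were not searched for, so Id1 and the other members cannot be said to lack such a site. A GGCGCC was present in 18.3% of all windows and in those of Bmpr1a, Smad5, Smad6, Id1, Id2 and Id4. The composite of Id2 begins at position −1585 from the start, within the following stretch on the minus strand of chr12:25148833-25148932, where capitals mark each GGCGCC and the GTCT.
Id2 upstream: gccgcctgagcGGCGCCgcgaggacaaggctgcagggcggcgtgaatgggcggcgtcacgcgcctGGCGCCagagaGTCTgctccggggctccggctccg

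The Id1 and Id2 windows share a stretch of 68 bases that can be aligned without a gap, with 47 identical bases. The bounds of this stretch were set by the best match between chosen parts of the Id1 and Id2 windows. The comparison that follows therefore favoured Id2 in advance and is given as a description. Among all 21748 windows, only those of Id1 and Id2 held a stretch with as many bases identical to that of Id1. The best stretch upstream of Id3 had 31 identical bases, which 44.7% of all windows reached, and that upstream of Id4 had 33, which 10.9% reached. The stretch lies on the plus strand at chr2:152577062-152577129 for Id1 (positions −1103 to −1036 from the start) and on the minus strand at chr12:25148864-25148931 for Id2 (positions −1649 to −1582). Capitals mark the bases that are identical in both.
Id1 shared stretch: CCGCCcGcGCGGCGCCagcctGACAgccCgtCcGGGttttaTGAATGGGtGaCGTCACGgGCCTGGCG
Id2 shared stretch: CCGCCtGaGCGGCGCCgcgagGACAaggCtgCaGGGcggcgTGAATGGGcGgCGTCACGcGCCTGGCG

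Upstream of Id4 the single GGCGCC lies much closer to the start, within chr13:48414398-48414497 on the plus strand (positions −160 to −61, 84.0% G and C), shown with the element in capitals.
Id4 upstream: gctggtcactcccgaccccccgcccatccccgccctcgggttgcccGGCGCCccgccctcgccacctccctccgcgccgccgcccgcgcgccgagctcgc
The octamer ATGCAAAT, the best known site of POU factors such as OCT6, was present in 11.3% of all windows and in none of the 10 members' windows. The GTCT alone was present in all windows. These matches describe letters in the genome and were not measured as bound sites.

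Of the 10 members, all were tested and 2 were called (20.0%, beside 24.3% of all genes), Id2 lower and Id4 higher in KO EpiLCs. Both also had a log2 fold change of at least 1 in size, and 6.21% of all genes tested were called with a change of that size. The median log2 fold change of the members was −0.21, with 3 positive and 7 negative values, and that of all genes tested 0.0014. The median size of the difference, without its sign, was 0.28 for the members and 0.23 for all genes. The groups did not overlap for 3 members, Id2, Id4 and Smad1, beside 33.7% of all genes tested. None of the members lies on chromosome 6 or 16, whose genes had median log2 fold changes of −0.40 and 0.55, and the median log2 fold changes of their own chromosomes ran from −0.041 to 0.065.

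**Figure D1:**
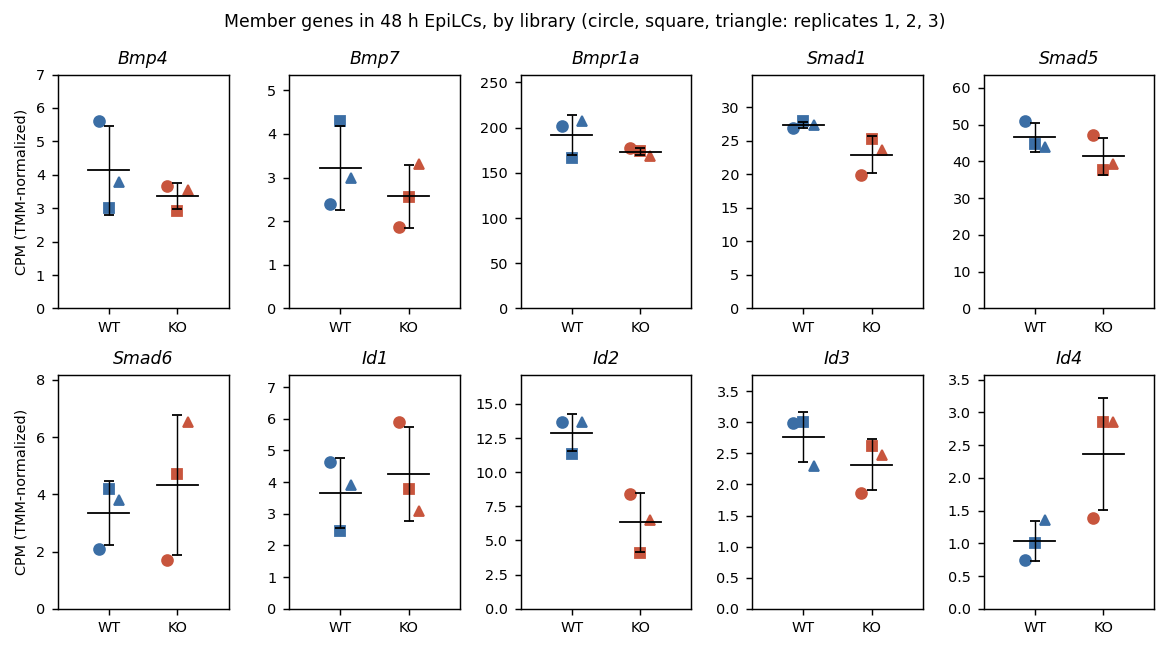
CPM of the 10 members in each library (vertical axes from 0, 1 panel a gene), with WT in blue and KO in red; the symbol gives the replicate number, the horizontal line the mean of 3 libraries and the bar the SD. Id2 lies at 11.3 to 13.7 CPM in WT and 4.09 to 8.43 CPM in KO libraries, and Id4 at 0.746 to 1.35 and 1.38 to 2.86 CPM, while the groups of the other members except Smad1 overlap.

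Id2 (ENSMUSG00000020644.10, chromosome 12 of GRCm39, 25143798 to 25147282) was counted 184, 124 and 203 times in WT replicates 1 to 3 and 104, 53 and 86 times in KO replicates 1 to 3. On the CPM scale these are 13.7, 11.3 and 13.7 in WT EpiLCs and 8.43, 4.09 and 6.47 in KO EpiLCs. Every KO library was below every WT library, and KO replicate 2 was the lowest. The mean fell from 12.9 ± 1.40 CPM (SD, n = 3) to 6.33 ± 2.17 CPM, a 2.05-fold lower level in the fit, with a log2 fold change of −1.04 (SE 0.22, adjusted p = 0.00207 by the edgeR test). The change remained called under each of the 14 alternative settings that were run, with values from −1.29 to −0.80. ID2 is the family member best known for holding back differentiation in lymphoid and neural lineages. In bulk RNA, fewer cells with a transcript and less of it in each cell cannot be told apart.

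Id4 (ENSMUSG00000021379.3, chromosome 13, 48414558 to 48419502) is known for its part in neural progenitors and in spermatogonial stem cells. It had the fewest counts of the members in each WT library, with 10, 11 and 20 counts there against 17, 37 and 38 counts in the KO libraries. The CPM values were 0.746, 1.00 and 1.35 in WT and 1.38, 2.85 and 2.86 in KO EpiLCs, so that KO replicate 1 barely exceeded WT replicate 3. The mean rose from 1.03 ± 0.304 CPM in WT to 2.36 ± 0.854 CPM in KO EpiLCs (SD, n = 3), with a log2 fold change of 1.18 (SE 0.39, adjusted p = 0.0423 by the edgeR test) or 2.26-fold. This call is less firm than that of Id2. It was lost without WT replicate 1 (log2 fold change 0.98, adjusted p = 0.135 by the same edgeR test), WT replicate 2 (1.15, adjusted p = 0.103), KO replicate 2 (1.02, adjusted p = 0.155) or KO replicate 3 (1.02, adjusted p = 0.168), and over all alternatives the adjusted p ran from 0.0188 to 0.184. With the replicate number as a block, edgeR kept the call (1.16, adjusted p = 0.0188) and DESeq2 did not (1.16, adjusted p = 0.184).

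Id1 (ENSMUSG00000042745.10, chromosome 2, 152566218 to 152579544) and Id3 (ENSMUSG00000007872.4, chromosome 4, 135870808 to 135873066) are, in many cell types, the Id genes that answer BMP most directly. Id1 was at 4.63, 2.46 and 3.92 CPM in WT replicates 1 to 3 and at 5.91, 3.78 and 3.08 CPM in KO replicates 1 to 3. The groups overlapped, with the highest value in KO replicate 1 and the lowest in WT replicate 2. Its log2 fold change was 0.20 (SE 0.29, adjusted p = 0.714 by the edgeR test), and the interval of 2 standard errors ran from −0.39 to 0.78. The sign of this value turned without WT replicate 2 (−0.01) or KO replicate 1 (−0.11). Id3 was at 2.99, 3.01 and 2.30 CPM in the WT libraries against 1.86, 2.62 and 2.48 CPM in the KO libraries, with overlapping groups. Its log2 fold change was −0.24 (SE 0.30, adjusted p = 0.645 by the edgeR test, interval −0.84 to 0.35). The fall estimated for Id2 (−1.04) lies outside both intervals, but the interval of Id2 itself (−1.47 to −0.60) overlaps that of Id3. Each library held 23 to 73 counts of either gene.

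Levels of different genes were compared per length, as CPM per kb of annotated exon (RPKM). Summed over the 4 Id genes, the level per length was 8.38, 6.53 and 7.73 RPKM in the WT libraries against 7.09, 5.39 and 5.60 RPKM in the KO libraries. The groups overlapped, with means of 7.55 ± 0.939 (SD, n = 3) and 6.03 ± 0.927 RPKM (two-sided exact permutation test without regard to the pairs, p = 0.2). Within each of the 3 pairs of the same replicate number the KO value was the lower. The share of each gene in this sum was then compared. Id2 made up 47.0%, 49.7% and 51.0% of it in WT replicates 1 to 3 and 34.1%, 21.8% and 33.1% in KO replicates 1 to 3, and the share of Id4 went from 1.94%, 3.34% and 3.81% to 4.22%, 11.5% and 11.1%. The ratio of Id2 to Id1 was 1.51 to 2.34 in WT and 0.551 to 1.07 in KO EpiLCs. With this length, Id2 exceeded Id1 in every WT library and in 1 of the 3 KO libraries. None of these shares overlapped between genotypes except those of Id1 and Id3. These shares and ratios are made from the values behind the calls of Id2 and Id4 and are given as a description. They also rest on the length used, and were not recomputed by library with another. With the longest transcript as the length, the means of Id2 and Id1 were 4.05 and 2.78 RPKM in WT EpiLCs. In KO EpiLCs they were 1.98 and 3.22 RPKM.

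**Figure D2:**
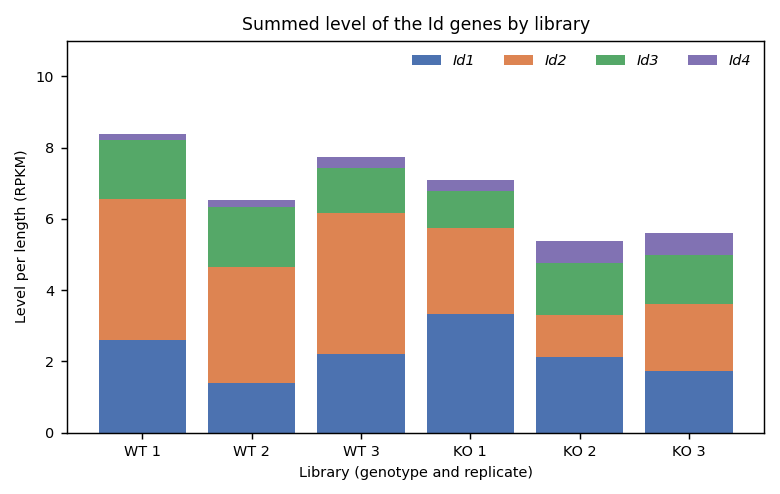
Level per length (RPKM, vertical axis from 0) of the 4 Id genes stacked for each library on the horizontal axis (genotype and replicate number). The whole bars run from 6.53 to 8.38 RPKM in WT and 5.39 to 7.09 RPKM in KO libraries, and the Id2 segment is 3.25 to 3.94 RPKM in WT and 1.17 to 2.42 RPKM in KO libraries.

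The ligands among the members were scarce. Bmp4 (ENSMUSG00000021835.16, chromosome 14, 46620250 to 46636745), the ligand that induces mesoderm and germ cells in the embryo, was counted 75, 33 and 56 times in WT and 45, 38 and 47 times in KO replicates 1 to 3. Its 5.60, 3.01 and 3.79 CPM in WT replicates 1 to 3 enclosed 2 of the 3 KO values, which were 3.65, 2.93 and 3.54 CPM. The log2 fold change was −0.30 (SE 0.27, adjusted p = 0.510 by the edgeR test, interval −0.85 to 0.25). Bmp7 (ENSMUSG00000008999.8, chromosome 2, 172709805 to 172782410), a related ligand of kidney and eye development, had 2.39, 4.29 and 2.98 CPM in the WT libraries against 1.86, 2.55 and 3.31 CPM in the KO libraries. The groups overlapped, and the log2 fold change was −0.30 (SE 0.31, adjusted p = 0.565 by the edgeR test, interval −0.93 to 0.32).

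Bmpr1a (ENSMUSG00000021796.16, chromosome 14, 34132687 to 34225379) was by contrast the most abundant member. It had 202, 166 and 207 CPM in the WT libraries against 177, 174 and 169 CPM in the KO libraries. WT replicate 2 was the lowest of all and the KO libraries were close together. The log2 fold change was −0.15 (SE 0.10, adjusted p = 0.367 by the edgeR test), with an interval from −0.35 to 0.06 that is the narrowest among the members.

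Smad1 (ENSMUSG00000031681.17, chromosome 8, 80065023 to 80126168) had 26.9, 27.9 and 27.3 CPM in the WT libraries against 19.9, 25.3 and 23.6 CPM in the KO libraries. All KO libraries were below all WT libraries, but the difference did not pass the test, with a log2 fold change of −0.25 (SE 0.13, adjusted p = 0.203 by the edgeR test, interval −0.51 to 0.01). Smad5 (ENSMUSG00000021540.17, chromosome 13, 56850797 to 56890190), whose product acts beside SMAD1, had 50.9, 44.7 and 43.9 CPM in the WT libraries against 47.1, 37.7 and 39.3 CPM in the KO libraries. Each KO value was below the WT value with the same number while the groups overlapped, and the log2 fold change was −0.17 (SE 0.12, adjusted p = 0.365 by the edgeR test, interval −0.41 to 0.07). Smad6 (ENSMUSG00000036867.8, chromosome 9, 63860341 to 63929793) varied widely between libraries, with 2.09, 4.20 and 3.79 CPM in the WT libraries against 1.70, 4.71 and 6.54 CPM in the KO libraries. The lowest and the highest value were both in KO libraries. Its log2 fold change of 0.38 (SE 0.37, adjusted p = 0.544 by the edgeR test, interval −0.36 to 1.11) was −0.05 without KO replicate 3.

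In WT EpiLCs the order of the members by level per length was Bmpr1a (24.7 ± 2.90 RPKM, SD, n = 3), Smad5 (6.02 ± 0.496), Id2 (3.71 ± 0.400), Smad1 (2.98 ± 0.0582), Id1 (2.07 ± 0.622), Id3 (1.54 ± 0.225), Smad6 (0.947 ± 0.315), Bmp4 (0.788 ± 0.253), Bmp7 (0.728 ± 0.220) and Id4 (0.225 ± 0.0662). Of the neighbours in this order, the values of Id1 and Id3, of Smad6 and Bmp4, and of Bmp4 and Bmp7 overlapped. The level of Bmpr1a exceeded that of 88.6% of the genes tested and that of Id4 exceeded 5.68%. In KO EpiLCs, Id2 (1.82 ± 0.623 RPKM) stood behind Smad1 and Id1, and from Smad1 downwards each neighbour overlapped the next. The order rests on the length used. With the longest transcript of each gene, Smad1 came second in both genotypes, ahead of Smad5.

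**Figure D3:**
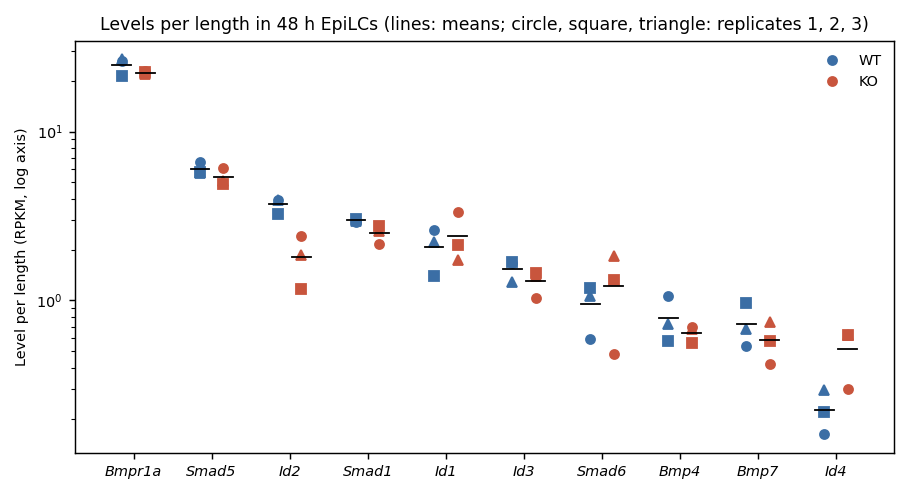
Level per length (RPKM, log axis) of each member, ordered by the WT mean, with WT libraries in blue and KO libraries in red, the replicate number as the symbol and the mean as a line. WT means run from 24.7 RPKM for Bmpr1a to 0.225 RPKM for Id4, and the blue and red points are apart for Id2, Smad1 and Id4.

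Outside the members, 74 other genes of the pathway were examined as lists of ligands, receptors, intracellular regulators, antagonists, targets and E proteins. Of these, 46 were tested, and the remaining 28 had at most 19 counts in any library. At the same threshold, 16 of the 46 were called (34.8%, beside 24.3% of all genes), 8 higher and 8 lower in KO EpiLCs. The median log2 fold change was 0.04. With the replicate number as a block, edgeR called 19 of them and DESeq2 called 8, beside 4764 and 2932 of all genes. The fit without a block called 3833 of all genes. DESeq2 without the block called 12 of the other pathway genes, beside 3292 of all genes.

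**Figure D4:**
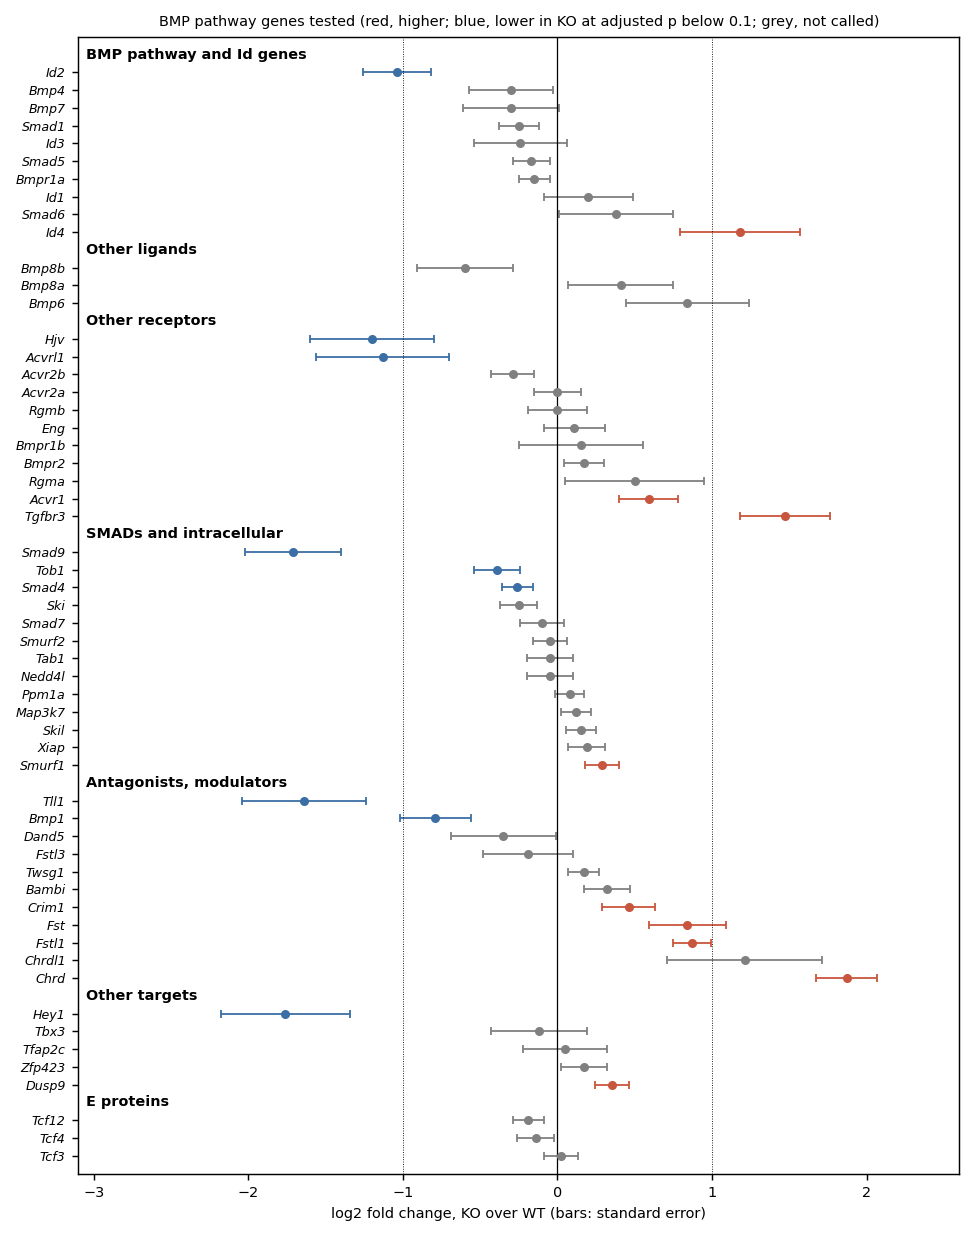
Log2 fold change of KO over WT (horizontal axis, bars giving the standard error) for the 10 members and the 46 other pathway genes tested, grouped by role, with Smad7 and Bambi, which belong also to the targets, drawn once. Red and blue mark genes called higher and lower in KO EpiLCs, grey genes that were not called, and dotted lines a log2 fold change of 1; Chrd lies farthest to the right at 1.87 and Hey1 farthest to the left at −1.76.

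The other ligands were few. Of 12 ligand genes, 9 had too few counts to test and none of the 3 tested was called. The levels of these were Bmp6 at 0.672, 0.913 and 0.879 CPM in the WT libraries against 1.22, 1.62 and 1.58 CPM in the KO libraries, Bmp8a at 1.65 ± 0.468 and 2.18 ± 0.218 CPM (SD, n = 3), and Bmp8b at 2.46, 2.65 and 2.77 CPM in the WT libraries against 1.54, 1.70 and 1.96 CPM in the KO libraries. The Bmp6 and Bmp8b groups did not overlap, but neither passed the edgeR test (adjusted p = 0.170 and 0.211).

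All 11 other receptors and co-receptors were tested and 4 were called (36.4%, beside 24.3% of all genes), 2 in each direction. Tgfbr3, the co-receptor betaglycan that binds TGFβ, inhibin and BMPs, had 4.03, 1.55 and 2.37 CPM in the WT libraries against 9.40, 6.02 and 6.92 CPM in the KO libraries. The KO libraries all exceeded the WT libraries, and the log2 fold change was 1.47 (SE 0.29, adjusted p = 0.00126 by the edgeR test). Acvr1, a type I receptor for BMP6 and BMP7, rose from 5.67 ± 0.260 CPM in WT to 8.56 ± 0.805 CPM in KO EpiLCs (SD, n = 3), with a log2 fold change of 0.59 (SE 0.19, adjusted p = 0.0347 by the edgeR test). Acvrl1, the type I receptor of endothelium, and Hjv, the co-receptor hemojuvelin of iron metabolism, were called lower, at small counts. Acvrl1 fell by 1.13 on the log2 scale (SE 0.43, adjusted p = 0.0748 by the edgeR test). Hjv had 1.57, 2.46 and 2.98 CPM in the WT libraries against 1.38, 0.617 and 1.05 CPM in the KO libraries, and fell by 1.20 on the log2 scale (SE 0.40, adjusted p = 0.0395 by the edgeR test). Acvr1, Acvrl1 and Hjv were not called by DESeq2 with the replicate block, nor by edgeR without KO replicate 1 (Acvr1, 0.53), WT replicate 1 or any 1 KO library (Acvrl1, −1.22 to −0.77), or WT replicate 3, KO replicate 2 or KO replicate 3 (Hjv, −1.23 to −0.94). Acvrl1 was also not called by DESeq2 without the block (adjusted p = 0.198) or by edgeR without a filter on low counts (adjusted p = 0.104). Bmpr2, the dedicated type II receptor, had a log2 fold change of 0.17 (SE 0.13) and was not called.

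Among 13 SMADs and intracellular regulators, all tested, 1 was called higher and 3 lower (30.8% called, beside 24.3% of all genes). Smad9, which encodes the third BMP-receptor SMAD, had 3.66, 5.29 and 4.60 CPM in the WT libraries against 1.05, 1.16 and 1.88 CPM in the KO libraries. It fell by 1.71 on the log2 scale (SE 0.31, adjusted p = 6.6e-04 by the edgeR test), a 3.27-fold lower level, with no overlap between genotypes. Smad9 was scarce beside Smad1 and Smad5. It made up 6.18% to 9.31% of their summed level per length in WT EpiLCs and 2.14% to 4.04% in KO EpiLCs. These shares rest on the length used, as the order of the members does. The sum of the 3 genes was 10.2, 9.74 and 9.45 RPKM in the WT libraries against 8.45, 7.84 and 7.98 RPKM in the KO libraries, which did not overlap (exact permutation test, p = 0.1, the smallest that 3 libraries against 3 can give). Smad4, the common partner of receptor SMADs, fell by 0.26 (SE 0.099, adjusted p = 0.0760 by the edgeR test). The antiproliferative SMAD-binding gene Tob1 fell by 0.39 (SE 0.15, adjusted p = 0.0767), and Smurf1, which encodes a ubiquitin ligase for SMAD1 and SMAD5, rose by 0.29 (SE 0.11, adjusted p = 0.0832). These last 3 genes were not called by DESeq2 with the replicate block, nor by edgeR without a filter on low counts. Tob1 and Smurf1 were also not called by DESeq2 without the block (adjusted p = 0.112 and 0.113). With library totals alone, edgeR did not call Smurf1 (adjusted p = 0.124). Calls were also lost without WT replicate 1 or 3 or KO replicate 1 or 3 (Smad4, −0.26 to −0.22), WT replicate 2 or 3 or KO replicate 1 or 2 (Tob1, −0.39 to −0.30), and any 1 library except KO replicate 1 (Smurf1, 0.21 to 0.32). The inhibitory Smad7 had a log2 fold change of −0.10 (SE 0.14).

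Of 21 extracellular antagonists and modulators, 11 were tested and 6 were called (54.5%, beside 24.3% of all genes), 4 higher and 2 lower in KO EpiLCs. Chrd and Fstl1, which are among the 4, lie on chromosome 16. Chrd, which encodes the BMP antagonist chordin, had 3.51, 5.11 and 3.65 CPM in the WT libraries against 14.7, 13.3 and 16.5 CPM in the KO libraries. Each KO library was well above each WT library, and the log2 fold change was 1.87 (SE 0.20, adjusted p = 3.11e-06 by the edgeR test), or 3.65-fold. Chrd lies on chromosome 16, whose genes had a median log2 fold change of 0.55, so that its value was 1.32 above that of its chromosome. Fstl1, a secreted glycoprotein of the follistatin-like group, lies on the same chromosome and rose from 33.8 ± 3.77 CPM in WT to 62.0 ± 6.51 CPM in KO EpiLCs (SD, n = 3), with a log2 fold change of 0.87 (SE 0.12, adjusted p = 4.12e-05 by the edgeR test), which is 0.32 above the chromosome. The part of the chromosome shift in both results was not tested. Follistatin (Fst), which binds activin and BMPs, was at 3.81, 3.83 and 3.99 CPM in the WT libraries against 9.07, 7.33 and 4.44 CPM in the KO libraries. Its log2 fold change of 0.84 (SE 0.25, adjusted p = 0.0248 by the edgeR test) was 0.60 and no longer called without KO replicate 1 (adjusted p = 0.169). Crim1, which encodes a membrane protein that binds BMPs, had a log2 fold change of 0.46 (SE 0.17, adjusted p = 0.0677). Fst and Crim1 were not called by DESeq2 with the replicate block, and Crim1 was not called without WT replicate 1 or 2 or KO replicate 1 or 3 (0.32 to 0.48). DESeq2 without the block did not call Crim1 either.

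Both modulators that were lower in KO EpiLCs encode tolloid-type proteases, which cleave chordin. Tll1 had 6.05, 4.02 and 2.71 CPM in the WT libraries against 2.43, 0.694 and 0.978 CPM in the KO libraries. The groups did not overlap, although WT replicate 3 and KO replicate 1 were close, and Tll1 fell by 1.64 on the log2 scale (SE 0.40, adjusted p = 0.00682 by the edgeR test). Bmp1, which despite its name encodes a protease and no BMP ligand, had 7.16, 6.39 and 7.03 CPM in the WT libraries against 3.48, 3.32 and 5.11 CPM in the KO libraries. It fell by 0.79 on the log2 scale (SE 0.23, adjusted p = 0.0191 by the edgeR test). The ratio of Chrd to Bmp4, both per length, was 0.399, 1.08 and 0.614 in WT replicates 1 to 3 and 2.56, 2.90 and 2.97 in KO replicates 1 to 3, which follows from the values of Chrd. Noggin, gremlin and Cer1, other secreted antagonists, had too few counts to test.

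Of 16 other genes that BMP signalling is known to induce in some tissues, 7 were tested and 2 were called (28.6%, beside 24.3% of all genes). Hey1, a repressor induced by Notch as well as BMP, had 1.87, 1.64 and 1.83 CPM in the WT libraries against 0.648, 0.386 and 0.527 CPM in the KO libraries, and fell by 1.76 on the log2 scale (SE 0.42, adjusted p = 0.00574 by the edgeR test). Dusp9, a phosphatase of the ERK pathway that BMP is known to raise in mESCs, had 269, 351 and 297 CPM in the WT libraries against 350, 406 and 410 CPM in the KO libraries. Its log2 fold change was 0.35 (SE 0.11, adjusted p = 0.0308 by the edgeR test), with groups that just overlapped, and the call was lost without WT replicate 1 (0.26), KO replicate 2 (0.31) or KO replicate 3 (0.31). Whether BMP or another pathway lay behind these 2 differences was not tested. The E proteins Tcf3, Tcf4 and Tcf12, which ID proteins bind, had log2 fold changes of 0.02, −0.14 and −0.19 and none was called.

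Markers of other cell types were examined as lists, beside 24.3% of all genes called. The share of tested genes called was 25.0% in the germ cell and fibroblast lists, 33.3% in the naïve list, 50.0% in the endoderm and trophoblast lists and 60.0% in the surface ectoderm list. The summed levels of the streak, neural, surface ectoderm and naïve lists did not overlap between genotypes, and those of the germ cell, endoderm, trophoblast and fibroblast lists did. Of 10 genes for primitive streak and mesoderm, which BMP induces in the embryo, 2 were tested, Eomes and Kdr, and both were higher in KO EpiLCs. The other 8 had at most 9 counts in any library and went in both directions. The summed level of the list, most of it from Eomes and Kdr, was 6.83 to 7.61 CPM in the WT libraries and 11.3 CPM or more in each KO library. Of 8 neural genes, 2 were tested and both were lower, with sums of 41.6 to 45.6 CPM and 15.7 to 17.2 CPM. The 8 germ cell genes were all tested and 2 were higher (83.8 to 113 and 108 to 129 CPM). Of 10 endoderm genes, 6 were tested, 2 of them higher and 1 lower (115 to 149 and 97.4 to 142 CPM). Of 9 trophoblast genes, 4 were tested, 1 higher and 1 lower (18.6 to 21.6 and 18.4 to 22.6 CPM). The higher one was Eomes, which is also in the streak list. Of 8 surface ectoderm genes 5 were tested, 1 higher and 2 lower (178 to 192 and 119 to 148 CPM). Of 7 fibroblast genes, 4 were tested and 1 was lower (13.3 to 22.0 and 9.26 to 14.0 CPM), and of the 9 naïve genes, all tested, 3 were higher (259 to 280 and 320 to 407 CPM). Tpbpa, a defining gene of trophoblast, was at 0 in all libraries. The part of these cells in the values of the members was not tested.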

How the data were processed

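Total RNA of 3 WT and 3 KO EpiLC libraries had been sequenced after removal of ribosomal RNA with a stranded kit. The authors checked reads with FastQC, trimmed them with Fastp and mapped them with STAR in two-pass mode to GRCm39, and deposited the raw counts per gene without normalization or pooling. The annotation release, strand setting and treatment of multiple matches are not given in the sources used here. Annotated genes that overlap a member had at most 6 counts in a library.

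Of 55416 identifiers, 54749 matched GENCODE release M39, and the others held 0.0602% of the counts. Counts were tested in R 4.3.3 with edgeR 4.0.16 (TMM, filterByExpr with minimum count 10, quasi-likelihood test, genotype as the only term, Benjamini-Hochberg over 15746 genes). Standard errors were derived from the F statistic, and the fit was tested on simulated data. RPKM are CPM per kb of the union of exons. The alternatives were DESeq2 1.42.0, other size factors and filters, robust estimation, a replicate block, stricter thresholds and the omission of each library.

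Replicates were described as paired in the study. Over 13701 genes, deviations from the group mean had correlations of 0.232, 0.291 and 0.119 between libraries with the same number. The correlations were −0.217 to −0.025 otherwise. The numbers were therefore taken to pair the libraries, but the main fit did not use the pairs. Among the fits, only those with a replicate block used them. P-values measure the spread between cultures of 1 line and 1 clone. Genes named are all members and, in the other lists, those called, with values for at most 6 a list. Genes named without a call (Bmp6, Bmp8a, Bmp8b, Bmpr2, Smad7, the E proteins and some untested ones) were chosen after their values were seen, as were the stretches of sequence. Members and lists were chosen with earlier results of these data known.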

Additional observations from a re-analysis of the deposited data

How the results depend on the processing

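Of 140 log2 fold changes of members recomputed under the alternatives, 135 stayed on their side of the threshold and 5 no longer passed, all of them of Id4. No called gene changed direction. For Id4, DESeq2 with replicate block gave a log2 fold change of 1.16 that did not pass, leaving 1 of the 10 members and 1 of the 4 Id genes called and 8 of the other pathway genes, while edgeR with the block gave 2, 2 and 19. Over all genes, DESeq2 with the block called 2932 and edgeR with the block 4764. With each library left out, the Id4 value ran from 0.98 to 1.45, the calls from 1 to 2 among the members and among the Id genes, and from 10 to 14 among the other pathway genes, of which 10 were called without KO replicate 1 and also without KO replicate 3. Over all genes, the calls in these refits ran from 3058 to 3790. Adding a log2 fold change of at least 1 left 978 of 3833 genes overall and 7 of the 16 other pathway genes. Bmp1, Chrd, Fstl1, Hey1, Smad9, Tgfbr3 and Tll1 remained called at an adjusted p below 0.1 in every refit that tested them, but Bmp1 (−0.79) and Fstl1 (0.87) are not among the 7 genes with a log2 fold change of at least 1 in size. Hey1, Tll1, Acvrl1 and Hjv could not be tested when 10 counts in every library were required. With the longest transcript as the length, 5 of 10 levels per length moved by more than the SD, which follows from the change of length alone. The cause of the calls lost under the alternatives was not tested. Id1, Id3, Id4, Smad6, Bmp4 and Bmp7 had under 100 counts in each library, and their intervals were wider than those of the other 4 members.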

Other observations

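The 33 protein-coding genes whose 2000 upstream bases hold GGCGCC followed, after 5 bases, by GTCT were described without regard to function. Of these, 25 were tested, 3 were called higher and 5 lower in KO EpiLCs, Id2 being among the latter, beside 11.8% higher and 12.5% lower of all genes tested.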
